A study of Mus musculus with 34 samples.

Results

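The Toll-like receptors Tlr1, Tlr2, Tlr3, Tlr4, Tlr7, Tlr8, Tlr9 and Tlr13 and the adaptor Myd88 were followed as 9 named genes of the 32285 measured in single-cell RNA libraries of mouse mammary tumours. The tumours were MMTV-Wnt1 tumours, in which a mammary tumour virus promoter drives the Wnt1 oncogene, carried as transplants in C57BL6j mice. Of the 34 samples of the series, 10 were libraries of sorted cells. The CD45+ sort takes all blood-derived cells, and 2 of its libraries came from tumours taken 48 h after the last of 5 doses of 4 mg/kg doxorubicin, a chemotherapy drug that damages DNA, and 2 came from untreated tumours. The CD4/8 sort, enriched for T cells, gave 6 libraries with 1 per group. One was taken 48 h after doxorubicin. In 4 others, antibody was given 3 times at 72 h intervals once doxorubicin had ended, and the tumour was taken 24 h after the final injection: anti-PD1 with IgG (200 ug of either), anti-CTLA4 with IgG (200 ug of either), anti-PD1 with anti-CTLA4 (200 ug of either) or IgG alone (400 ug). The last was an untreated tumour. A pooled table of tumour cells, from a doxorubicin and an untreated sample that its cell names do not tell apart, was also described. The labels give no age of the mice and do not say whether the 2 libraries of a CD45+ group came from separate animals, so p-values here measure only the spread between these libraries, which may be technical.

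Toll-like receptors recognise molecules of microbes and of damaged cells and set off inflammatory gene expression. Tlr1, Tlr2 and Tlr4 act at the cell surface, Tlr2 as a partner of Tlr1 or Tlr6 for bacterial lipoproteins and Tlr4 for lipopolysaccharide. Tlr3, Tlr7, Tlr8, Tlr9 and Tlr13 act in endosomes and bind nucleic acids, with Tlr13 in mouse recognising bacterial ribosomal RNA. All of them except Tlr3 signal through Myd88, which recruits Irak kinases and activates NF-kB, while Tlr3 uses Ticam1, and Tlr4 uses both routes. Myeloid cells are their best known users, and in tumours the receptors have been studied as sensors of dying cells.

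Promoters of 7 of the 9 genes were found in the RefSeq promoter table (build GRCm38.p6), each running from 250 bases before to 50 bases after the annotated start. The 3 shown belong to genes with different patterns over cell types. They are the adaptor found in every gate, a receptor lower in neutrophils than in macrophages and tumour cells, and a receptor highest in neutrophils. Capitals mark matches, on either strand, to the interferon response element (GAAA, then 2 bases of any kind, then GAAA), the NF-kB motif (GGG, then 2 bases of any kind, then TTTCC) or the C/EBP motif (TTGCNNAA). The PU.1-type ETS motif GAGGAAGT was also searched, and no 2 matches overlap in the promoters shown. The Myd88 promoter lies at chr9:119339969-119340268 on the minus strand, the Tlr3 promoter at chr8:45410331-45410630 on the minus strand, and the Tlr13 promoter at chrX:106143025-106143324 on the plus strand.
Myd88: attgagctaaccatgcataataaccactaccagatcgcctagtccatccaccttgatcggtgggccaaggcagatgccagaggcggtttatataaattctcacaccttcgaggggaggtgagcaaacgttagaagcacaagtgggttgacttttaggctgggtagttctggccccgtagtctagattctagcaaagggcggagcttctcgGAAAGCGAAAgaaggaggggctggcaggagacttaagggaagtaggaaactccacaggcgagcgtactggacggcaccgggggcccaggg
Tlr3: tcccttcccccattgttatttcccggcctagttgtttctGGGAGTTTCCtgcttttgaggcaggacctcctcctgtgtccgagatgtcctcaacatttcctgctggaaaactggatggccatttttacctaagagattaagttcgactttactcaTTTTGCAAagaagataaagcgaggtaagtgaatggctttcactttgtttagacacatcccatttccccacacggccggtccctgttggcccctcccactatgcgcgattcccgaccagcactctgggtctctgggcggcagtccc
Tlr13: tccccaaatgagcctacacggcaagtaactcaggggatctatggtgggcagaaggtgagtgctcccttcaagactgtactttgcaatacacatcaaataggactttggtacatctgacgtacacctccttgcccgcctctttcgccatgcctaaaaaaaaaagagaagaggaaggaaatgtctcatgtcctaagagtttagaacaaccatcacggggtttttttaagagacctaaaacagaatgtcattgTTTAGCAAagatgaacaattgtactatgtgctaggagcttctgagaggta
The Myd88 match to the interferon response element, GAAAGCGAAA, begins 40 bases before the start, and 3.44% of 32851 promoters of the same length hold such a match. The Tlr3 promoter holds GGGAGTTTCC, an NF-kB match found in 1.63% of promoters, and TTTTGCAA, a C/EBP match found in 10.8%. The Tlr13 promoter holds the C/EBP match TTTAGCAA at its start. One of the 2 Tlr1 promoters listed and the Tlr9 promoter held the ETS motif, which 3.2% of promoters hold, Tlr8 held 2 C/EBP matches and Tlr2 held none of the 4 motifs. These matches describe letters and no factor binding was measured.

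Genes were assigned to the rows of these libraries by the gene order of the pooled table, after a check of row totals. Cells were gated by panels of cell type markers that include none of the 9 genes. A cell entered the neutrophil gate with 30 or more marker UMIs (unique molecular identifiers, 1 per captured RNA molecule) per 10000 and at least 3 of 10 markers, and the other gates were built in the same way. The neutrophil gate held 55.9% and 48.0% of kept cells in the doxorubicin libraries and 9.33% and 5.40% in the untreated libraries. The macrophage gate held 13% and 12.8% after doxorubicin and 23.5% and 34.9% without it. The monocyte gate held 36 and 175 cells after doxorubicin and 304 and 71 untreated cells, and the tumour gate, epithelial cells that came through the CD45+ sort, held 100 and 254 cells after doxorubicin and 518 and 163 untreated cells. Of the monocyte gate, 16 and 68 cells after doxorubicin and 115 and 21 untreated cells also reached the macrophage threshold, so the 2 gates are not cleanly apart. The dendritic gate held 4 and 24 cells after doxorubicin and 111 and 15 untreated cells, and 3 of the 4 libraries were under the 30 cells required for a test, so its values are given without one. Neutrophil cells were shallow, with median counts of 4690 and 3030 UMIs after doxorubicin and 2949 and 3128 untreated, while macrophages had 13222 and 7300.5 UMIs after doxorubicin and 12121.5 and 11981 untreated. Levels below are UMIs of a gene per 1000000 UMIs of the gate (CPM).

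**Figure D1:**
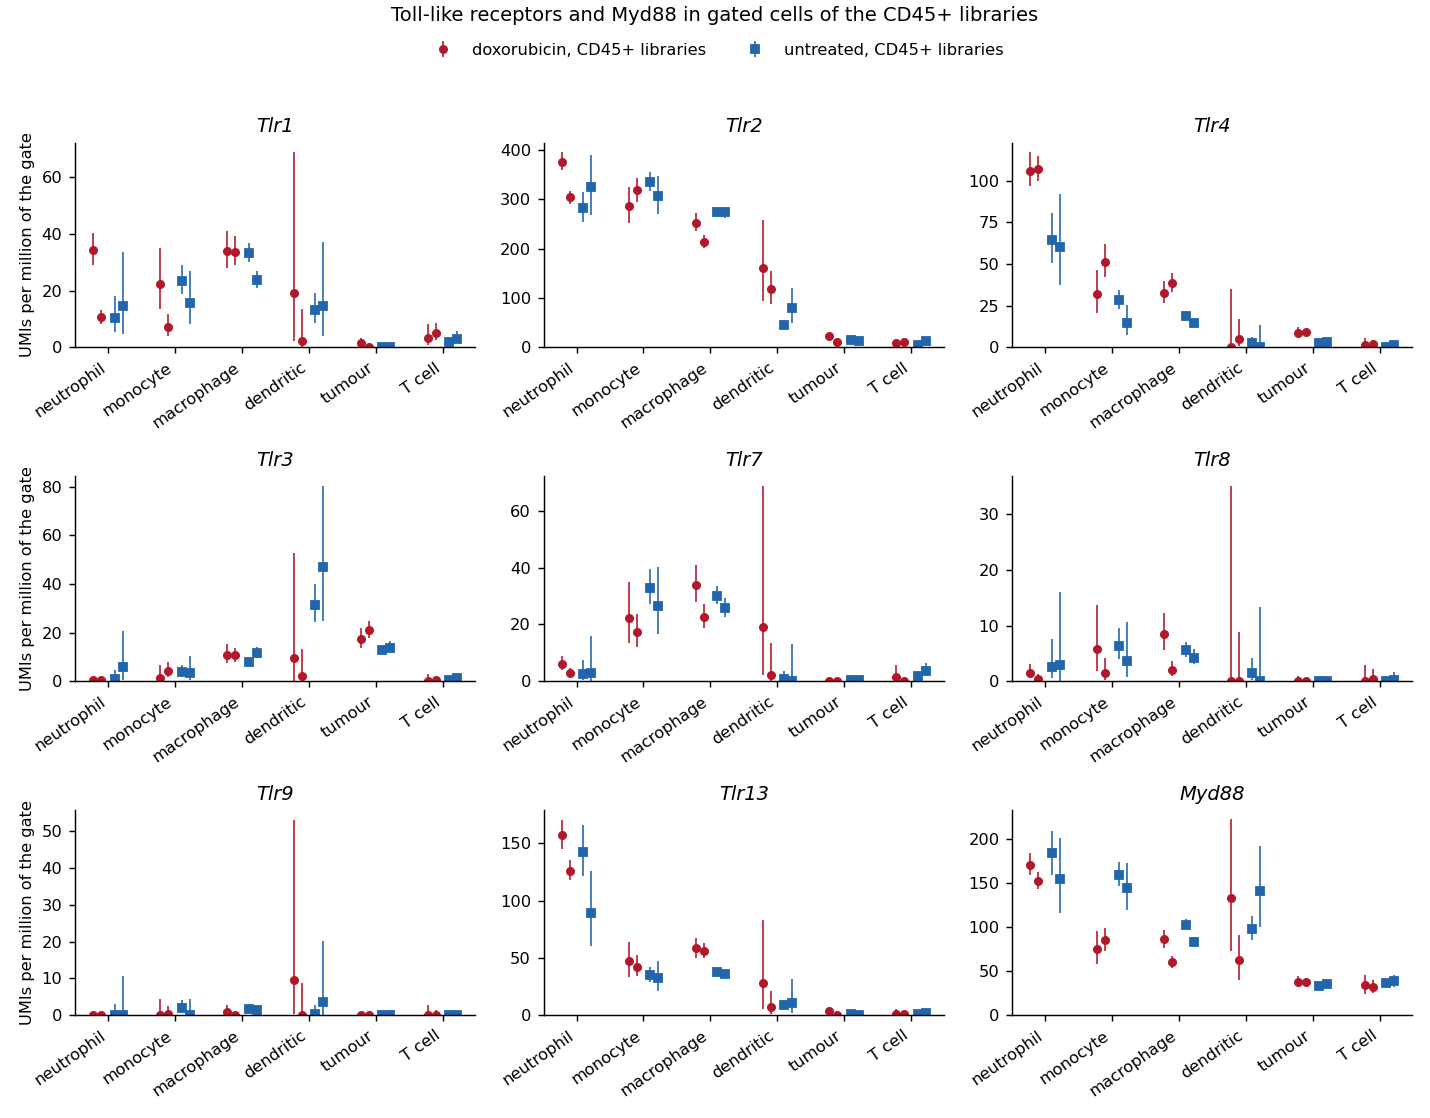
Level of each gene, in CPM, in 6 gates of the CD45+ libraries, with 1 point per library and bars for the exact 95% Poisson interval, doxorubicin in red circles and untreated in blue squares. Tlr2, Tlr4, Tlr13 and Myd88 sit highest in or near the neutrophil gate, Tlr7 and Tlr8 in the monocyte and macrophage gates, and Tlr3 in the tumour gate after doxorubicin and in the dendritic gate of the untreated libraries.

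The cell-surface receptor Tlr2 was high in the neutrophil, monocyte and macrophage gates and lower in the others. It measured 376 and 304 CPM in doxorubicin neutrophils and 283 and 324 CPM in untreated neutrophils, 286 and 318 CPM in doxorubicin monocytes and 335 and 307 CPM in untreated monocytes, and 252 and 214 CPM in doxorubicin macrophages and 274 and 273 CPM in untreated macrophages. The tumour gate held 23.2 and 11.8 CPM after doxorubicin and 15.2 and 12.1 CPM untreated, while the T cell gate held 9.5 and 11.2 CPM after doxorubicin and 5.6 and 12.2 CPM untreated. The small dendritic gate held 161 and 118 CPM after doxorubicin and 45.0 and 79.4 CPM untreated. Summed over the 4 libraries, Tlr2 was 63.2 CPM in dendritic cells (95% exact Poisson interval 54.3 to 73.1), 45.1 CPM in B cells (interval 23.3 to 78.8, from 12 UMIs), 14.7 CPM in tumour cells (interval 13.6 to 15.8) and 8.04 CPM in T cells (interval 6.74 to 9.52). Of the 12 B cell UMIs, 8 came from 25 cells of untreated replicate 2. B cells of the pooled table held 1 Tlr2 UMI in 5 cells of its first barcode set. In its second set 51 B cells held none, which allows up to 16.2 CPM by the exact interval. Macrophage markers were present in the tumour gate (5.15 and 7.62 UMIs per 10000 after doxorubicin, 5.36 and 3.36 untreated), and macrophage RNA at that share would carry 5.55 and 6.47 CPM of Tlr2 after doxorubicin and 8.9 and 3.79 CPM untreated. Its part in the tumour value was not tested.

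Tlr4, the lipopolysaccharide receptor, was led by neutrophils. Neutrophils held 106 and 107 CPM after doxorubicin and 64.2 and 60.3 CPM untreated, macrophages 32.7 and 38.7 CPM after doxorubicin and 19.0 and 14.8 CPM untreated, and monocytes 31.8 and 51.5 CPM after doxorubicin and 28.3 and 14.5 CPM untreated. Tumour cells held 8.7 and 9.5 CPM after doxorubicin and 2.7 and 3.0 CPM untreated, and summed over the 4 libraries T cells held 0.893 CPM (95% exact Poisson interval 0.5 to 1.47). Tlr1, the Tlr2 partner, measured 33.9 and 33.7 CPM in doxorubicin macrophages and 33.3 and 23.8 CPM in untreated macrophages. In neutrophils Tlr1 differed widely between the doxorubicin libraries, at 34.3 and 10.6 CPM, with 10.4 and 14.4 CPM untreated.

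Among the endosomal receptors, Tlr13 followed the neutrophils, with 157 and 126 CPM after doxorubicin and 142 and 89 CPM untreated. Macrophages held 58.4 and 56.2 CPM of Tlr13 after doxorubicin and 37.4 and 35.8 CPM untreated. Tlr7, a receptor of single-stranded RNA, was higher in monocytes and macrophages than in neutrophils, tumour cells and T cells. It measured 33.9 and 22.8 CPM in doxorubicin macrophages and 30.1 and 25.9 CPM in untreated macrophages. Neutrophils held no more than 6.15 CPM of Tlr7 in any CD45+ library. B cells held only 4 Tlr7 UMIs in these libraries, with an exact interval that includes the macrophage values. Tlr8, the X-linked neighbour of Tlr7, had few UMIs, 8.5 and 2.0 CPM in doxorubicin macrophages and 5.6 and 4.3 CPM in untreated macrophages. Tlr9, the receptor of unmethylated DNA, was barely detected. Over all kept cells it had 4 and 6 UMIs after doxorubicin (0.239 and 0.172 CPM) and 30 and 23 untreated (0.44 and 0.634 CPM). Macrophages held 37 Tlr9 UMIs in all 4 libraries (1.24 CPM, interval 0.873 to 1.71), and none were found among 12554430 UMIs of neutrophils, which allows up to 0.239 CPM, or among 265908 UMIs of B cells, which allows up to 11.3 CPM. The last limit is wide, since only 58 B cells were gated. Plasmacytoid dendritic cells had a gate of their own, and their levels of Tlr7 and Tlr9 are not given here.

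Tlr3, the receptor of double-stranded RNA, had another order, low in neutrophils and present in tumour cells. Tumour cells held 17.4 and 21.2 CPM after doxorubicin and 13 and 13.9 CPM untreated, macrophages 11 and 10.7 CPM after doxorubicin and 7.9 and 11.8 CPM untreated, and neutrophils 0.717 CPM (interval 0.328 to 1.36) summed over the 4 libraries. Dendritic cells held 9.5 and 2.4 CPM after doxorubicin, from 4 and 24 cells, and 31.5 and 46.9 CPM untreated. Splitting the dendritic gate by its own markers, a split chosen after these values were seen, put 72 of the 80 Tlr3 UMIs in 19 cells with Xcr1 or Clec9a, the markers of type 1 dendritic cells, at 158 CPM (interval 123 to 198). The 61 Cd209a cells held 5 Tlr3 UMIs (4.91 CPM, interval 1.59 to 11.5) and the 52 Ccr7 or Fscn1 cells held none, which allows up to 3.86 CPM by the exact interval. The endothelial gate, of 8 and 15 cells after doxorubicin and 11 and 6 untreated, held 26.5 and 27.8 CPM of Tlr3 after doxorubicin and 63.6 and 27 CPM untreated, from 5 to 21 UMIs a library.

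The adaptor Myd88 was present in every gate. Neutrophils held 171 and 153 CPM after doxorubicin and 184 and 155 CPM untreated, and monocytes 75.3 and 85.4 CPM after doxorubicin and 160 and 145 CPM untreated. Macrophages held 86.4 and 60.3 CPM after doxorubicin and 103 and 82.9 CPM untreated. Tumour cells, at 37.9 and 38.0 CPM after doxorubicin and 33.0 and 35.2 CPM untreated, were close to T cells, at 34.2 and 32.2 CPM after doxorubicin and 36.3 and 39.0 CPM untreated. Myd88 lies at chromosome 9, 119335934 to 119341411 on the minus strand (GRCm38), where the annotation overlaps it with Slc22a14 on the same strand and Acaa1a on the other, and Tlr3 overlaps the antisense gene Gm45542. How the counting treated strand is not given in the sources used here, so reads of these pairs could not be told apart.

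The gates were then set against each other in the CD45+ libraries with the library as a block, using edgeR's quasi-likelihood test with Benjamini-Hochberg adjustment over 12770 genes, in which 8 of the 9 genes were tested and Tlr9 was too sparse. Neutrophils against macrophages called 7 of the 8, where 55.7% of all genes were called, with 4 higher (background 23.4%) and 3 lower (background 32.3%). Tlr4 was higher by 2.03 log2 units (SE 0.209), Tlr13 by 1.77 (SE 0.275), Myd88 by 1.36 (SE 0.211) and Tlr2 by 0.66 (SE 0.195). Tlr3 was lower at -3.4 (SE 0.478), Tlr7 at -2.33 (SE 0.35) and Tlr8 at -1.5 (SE 0.467), and Tlr1 did not pass (-0.62, SE 0.379). Without doxorubicin replicate 2 the Tlr2 and Tlr8 calls were lost (adjusted p = 0.0591 and 0.0544 in edgeR's test), and without doxorubicin replicate 1 the Tlr8 call was lost (adjusted p = 0.169) and Tlr1 passed at -1.02 (adjusted p = 0.0449).

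Neutrophils against monocytes called 6 of the 8 genes, where 46.7% of all genes were called. Of the 6, 3 were higher (background 23.3%), Tlr13 at 2.02, Tlr4 at 1.7 and Myd88 at 0.87 log2 units, and 3 lower (background 23.4%), Tlr7 at -2.16, Tlr3 at -1.95 and Tlr8 at -1.3. The Tlr8 call (adjusted p = 0.0483 in edgeR's test) was lost in 7 of its alternatives, with adjusted p up to 0.227, and the Tlr3 call was lost without doxorubicin replicate 2 (-1.5, adjusted p = 0.155) or untreated replicate 1 (-1.73, adjusted p = 0.0752). Tlr1 and Tlr2 did not pass, with 0.3 and 0.35. The next comparison counts as monocytes many cells that also reached the macrophage threshold. Monocytes against macrophages called 1 of the 8 genes, where 9.7% of all genes were called, and it was lower (background 6.7%), Tlr3 at -1.44 (SE 0.369, adjusted p = 0.0185 in edgeR's test), and none was higher (background 3.01%). That call was lost without any one of the 4 libraries, over which the adjusted p ran between 0.0563 and 0.113.

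Against tumour cells, neutrophils (background 74.3%, of which 31.8% higher and 42.5% lower) and monocytes (background 63.4%, of which 27.3% higher and 36.2% lower) each had 7 genes higher and Tlr3 lower. Neutrophils were above tumour cells by 7.45 log2 units for Tlr13, 4.9 for Tlr2, 4.47 for Tlr4 and 2.71 for Myd88, and below them at -3.88 for Tlr3. Monocytes were below tumour cells at -1.93 for Tlr3. Macrophages called 7 of the 8, where 62.1% of all genes were called, all 7 higher (background 29.9%) and none lower (background 32.2%), with Tlr3 at -0.49 (SE 0.269) not passing. Myeloid and tumour gates thus differed in most genes tested. The high ratios of the rarest receptors rest on the 44 Tlr13, 18 Tlr7, 14 Tlr1 and 2 Tlr8 UMIs found among 48883035 UMIs of tumour cells.

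Doxorubicin was first compared over all kept cells of the CD45+ libraries, where Tlr4 and Tlr13 rose. Tlr4 measured 40.9 and 41.5 CPM after doxorubicin and 7.8 and 7.9 CPM untreated, and Tlr13 60.4 and 44.0 CPM after doxorubicin and 12.3 and 17.1 CPM untreated. With edgeR's quasi-likelihood test and Benjamini-Hochberg adjustment, 2 of the 9 genes tested were called, where 5.5% of all genes were, both higher (background 3.24%) and none lower (background 2.26%). Tlr4 rose by 2.27 log2 units (SE 0.189, adjusted p = 0.00953) and Tlr13 by 1.71 (SE 0.288, adjusted p = 0.0334). Tlr13 did not pass without doxorubicin replicate 1 (1.43, adjusted p = 0.0871) or untreated replicate 1 (1.47, adjusted p = 0.0728). The other 7 ranged between -1.53 for Tlr9 and 0.56 for Tlr2.

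In whole libraries, more cells of a type and more RNA per cell cannot be told apart, so the UMIs were traced to their gates. Neutrophils gave 65.6% and 50.6% of all Tlr4 UMIs after doxorubicin, against 13.9% and 7.32% in untreated libraries, where macrophages gave 41.7% and 50.9%. For Tlr13 neutrophils gave 65.7% and 56.0% after doxorubicin and 19.6% and 4.98% untreated. Neutrophils held 25.2% and 19.6% of all UMIs after doxorubicin and 1.69% and 0.96% untreated. With the doxorubicin shares of each gate and the mean untreated level within each gate, whole-library Tlr4 would be 21.8 and 18.2 CPM, against the observed 40.9 and 41.5 CPM, and with untreated mean shares and levels it would be 7.8 CPM. The same arithmetic gave 40 and 33.6 CPM for Tlr13 (observed 60.4 and 44.0, untreated 14.3) and 88.3 and 81.3 CPM for Myd88 (observed 87.8 and 75.3, untreated 58.7). With the untreated mean shares and the doxorubicin level within each gate, the values would be 19.0 and 23.8 CPM for Tlr4. They would be 28.1 and 23.4 CPM for Tlr13 and 59.4 and 53.4 CPM for Myd88.

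**Figure D2:**
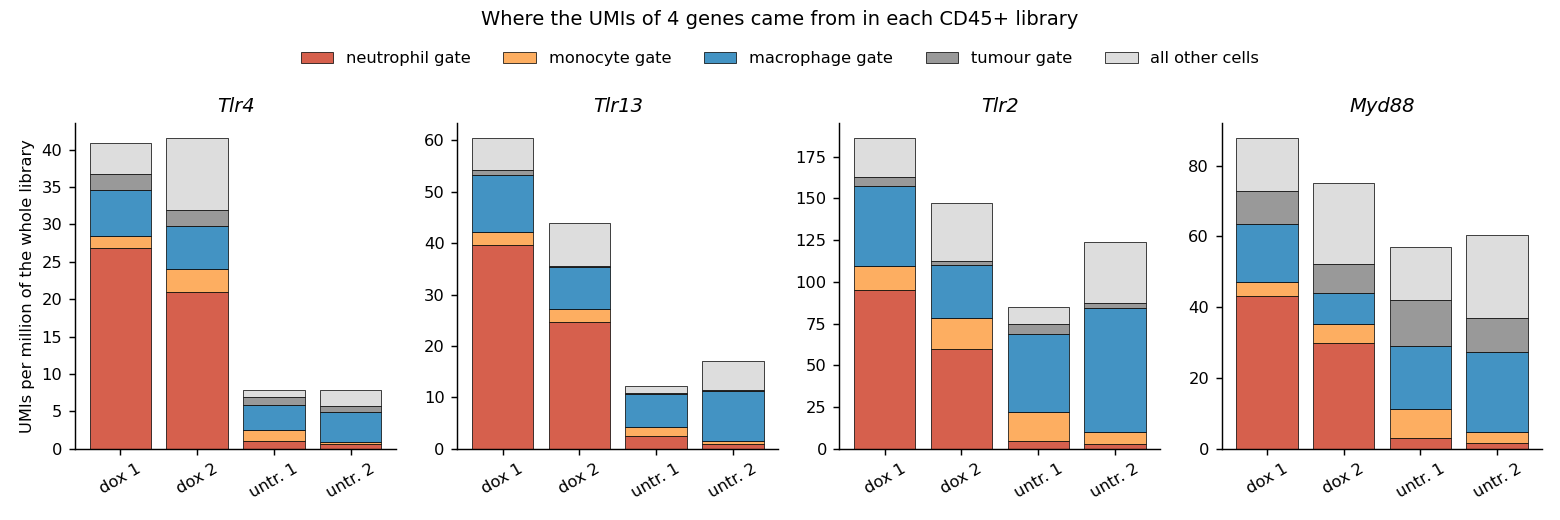
CPM of the whole library given by each gate for Tlr4, Tlr13, Tlr2 and Myd88, with 1 stacked bar per CD45+ library, doxorubicin left and untreated right. Neutrophils make up 26.8 and 21.0 of the 40.9 and 41.5 Tlr4 CPM after doxorubicin and 1.09 and 0.579 of the 7.8 and 7.9 untreated.

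Within macrophages, Tlr4 rose. Its 32.7 and 38.7 CPM after doxorubicin lay above the 19.0 and 14.8 CPM of untreated macrophages, a change of 1.04 log2 units (SE 0.223, adjusted p = 0.0267 in edgeR's quasi-likelihood test with Benjamini-Hochberg adjustment). It was the 1 gene of 9 called, where 7.73% of all genes were, with none of the 9 called lower (background 3.82% higher, 3.91% lower). The call was lost without doxorubicin replicate 1 (1.16, adjusted p = 0.0708), doxorubicin replicate 2 (0.9, adjusted p = 0.127) or untreated replicate 2 (0.88, adjusted p = 0.152), and over all alternatives the adjusted p ran between 0.000806 and 0.152. Tlr13 was next, at 58.4 and 56.2 CPM after doxorubicin and 37.4 and 35.8 CPM untreated, and did not pass (0.61 log2 units, SE 0.187, adjusted p = 0.0831). The other 7 genes did not pass, with 6 between -0.39 for Myd88 and 0.2 for Tlr1, and sparse Tlr9 at -1.62 (SE 0.831).

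Neutrophil markers were higher in the macrophage gate after doxorubicin. All 10 were detected in every library, at 5.39 and 3.27 UMIs per 10000 in doxorubicin macrophages and 0.746 and 0.919 in untreated macrophages, against 747 and 714 in doxorubicin neutrophils and 419 and 776 in untreated neutrophils. RNA of neutrophils at that share would add 0.765 and 0.49 CPM of Tlr4 to doxorubicin macrophages and 0.114 and 0.0714 CPM to untreated macrophages. Its part in the result was not tested.

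The macrophage gate also changed in make-up. Cells with the lipid-type markers Spp1, Gpnmb and Fabp5 were 52.3% and 44.7% of the gate after doxorubicin and 26.6% and 17.5% untreated, and cells with the resident-type markers Folr2, Cd163 and Lyve1 were 9.3% and 15.7% after doxorubicin and 3.0% and 1.3% untreated. In lipid-type cells Tlr4 measured 34.0 and 34.5 CPM after doxorubicin and 18.2 and 21.5 CPM untreated, and in cells of neither kind 24.9 and 39.8 CPM after doxorubicin and 17.4 and 13.3 CPM untreated. Resident-type cells held 62.9 and 60.4 CPM after doxorubicin and 61.5 and 35.7 CPM untreated, from 17, 29, 23 and 3 UMIs. Tlr4 was higher after doxorubicin in lipid-type cells and in cells of neither kind. In resident-type cells the doxorubicin libraries were within the counting error of the larger untreated library. Tlr13 in lipid-type cells measured 60.5 and 62.7 CPM after doxorubicin and 42.1 and 43.6 CPM untreated, whereas resident-type cells held 51.8 and 47.9 CPM after doxorubicin and 74.9 and 71.5 CPM untreated. These sub-gates were chosen after the gate values had been seen and were not tested.

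**Figure D3:**
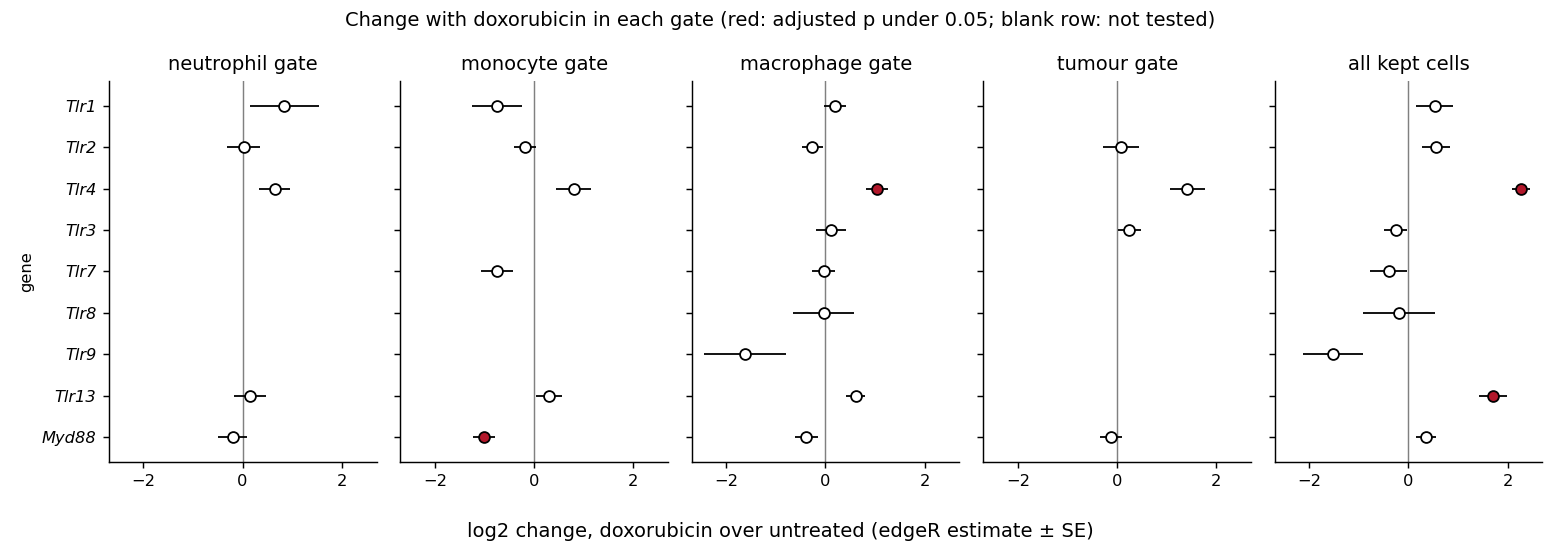
Log2 change, doxorubicin over untreated, with its SE, for each gene tested in the neutrophil, monocyte, macrophage and tumour gates and over all kept cells, in edgeR's quasi-likelihood fit. Filled red points mark adjusted p under 0.05, which are Tlr4 in macrophages, Myd88 in monocytes, and Tlr4 and Tlr13 over all kept cells.

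In monocytes Myd88 fell. It measured 75.3 and 85.4 CPM after doxorubicin and 160 and 145 CPM untreated, a change of -1.01 log2 units (SE 0.224, adjusted p = 0.0465 in edgeR's quasi-likelihood test with Benjamini-Hochberg adjustment). Of the 6 genes tested in monocytes it was the 1 called, where 2.42% of all genes were (0.884% higher and 1.53% lower). The call was lost without any one of the 4 libraries, with adjusted p between 0.0542 and 0.143 and changes between -1.11 and -0.94, and over all alternatives the adjusted p ran between 0.00479 and 0.143. Tlr4, at 31.8 and 51.5 CPM after doxorubicin and 28.3 and 14.5 CPM untreated, did not pass (0.8 log2 units, SE 0.354, adjusted p = 0.348), and neither did Tlr7, at 22.4 and 17.2 CPM after doxorubicin and 32.9 and 26.6 CPM untreated (-0.75, SE 0.319, adjusted p = 0.319).

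Monocytes with Ly6c2, the marker of classical monocytes, were 13.9% and 25.1% of the gate after doxorubicin and 49.3% and 59.2% untreated. Myd88 measured 88.2 and 134 CPM in the Ly6c2 cells after doxorubicin and 177 and 153 CPM untreated, and 72.3 and 68.6 CPM in the remaining cells after doxorubicin and 145 and 133 CPM untreated. Myd88 was lower after doxorubicin in the remaining cells of both libraries. In the Ly6c2 cells the values were also lower, but that of doxorubicin replicate 1 came from 5 cells. The other, 134 CPM, was near the lower untreated value of 153 CPM, and no counting error is given for it. A fall within Ly6c2 cells is therefore uncertain. This split too was chosen after the gate values had been seen and was not tested. At the neutrophil marker share of the monocyte gate, neutrophil RNA would carry 1.46 and 0.831 CPM of Myd88 after doxorubicin and 0.707 and 0.533 CPM untreated. Macrophage markers stood at 34.1 and 29.1 UMIs per 10000 in doxorubicin monocytes and 33.0 and 25.2 in untreated monocytes, and their part in the result was not tested.

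Neutrophils gave no call among the 5 genes tested, where 1.04% of all genes were called (0.127% higher and 0.911% lower), and none of the 5 had an unadjusted p under 0.05 by edgeR. The DESeq2 Wald test called none of them either. Tlr4 was higher in both doxorubicin libraries and measured 0.65 log2 units (SE 0.308, adjusted p = 0.391 in edgeR's test). Tlr2 measured 0.02 (SE 0.328), Tlr13 0.15 (SE 0.319), Myd88 -0.2 (SE 0.3) and Tlr1 0.84 (SE 0.696). With SEs between 0.3 and 0.696, changes of that size were not detectable here.

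Tumour cells gave no call among the 4 genes tested, where 3.31% of all genes were called (1.32% higher and 1.99% lower). Tlr4, at 8.7 and 9.5 CPM after doxorubicin and 2.7 and 3.0 CPM untreated, had the largest estimate of the 4, at 1.42 log2 units (SE 0.358, unadjusted p = 0.00458 and adjusted p = 0.0803 in edgeR's test). It was called in 2 of its 10 alternatives, over which the adjusted p ran between 0.0125 and 0.324. At the neutrophil marker share of the tumour gate, neutrophil RNA would carry 0.849 and 0.244 CPM of Tlr4 after doxorubicin and 0.127 and 0.0494 CPM untreated, and at its macrophage marker share macrophage RNA would carry 0.72 and 1.17 CPM after doxorubicin and 0.617 and 0.205 CPM untreated. Their part in the result was not tested. Tlr3 (0.25, SE 0.235), Tlr2 (0.08, SE 0.369) and Myd88 (-0.12, SE 0.219) did not pass. On the CPM scale the median gene of this gate was 0.24 log2 units higher after doxorubicin and in the fit -0.02, so Myd88, 37.9 and 38.0 CPM after doxorubicin and 33.0 and 35.2 CPM untreated, changes sign between the scales.

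Whether the doxorubicin effect differed between neutrophils and macrophages was tested as an interaction with the library as a block. None of the 8 genes tested was called, where 2.47% of all genes were called (0.774% higher and 1.7% lower), and none had an unadjusted p under 0.05 in edgeR's quasi-likelihood test. The difference, neutrophils minus macrophages, was -0.25 log2 units for Tlr4 (SE 0.331, adjusted p = 0.811), -0.37 for Tlr13 (SE 0.305, adjusted p = 0.643) and 0.32 for Myd88 (SE 0.297, adjusted p = 0.702). The call for Tlr4 in macrophages and its absence in neutrophils are therefore no evidence of a difference between the cell types.

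The 6 CD4/8 libraries carried macrophages, tumour cells and some neutrophils beside T cells and gave a second set of values. With 1 library per group they allow no test, and the intervals below cover counting error only. In macrophages Tlr4 measured 32.0 CPM after doxorubicin at 48 h and 14.4 CPM untreated, a ratio of 2.22 (95% exact interval 1.61 to 3.08), and Tlr13 measured 53.2 CPM and 29.9 CPM, a ratio of 1.78 (1.42 to 2.25). In the same cells Myd88 measured 59.3 CPM after doxorubicin and 61.6 CPM untreated, a ratio of 0.963 (0.804 to 1.15), and Tlr2 312 and 273 CPM, a ratio of 1.14 (1.05 to 1.24). So in macrophages Tlr4 and Tlr13 stood apart from the untreated library in the same direction as in the CD45+ sort. Tlr2 also stood apart, in the direction opposite to the CD45+ estimate, which did not pass (-0.27 log2 units, SE 0.211). In neutrophils Tlr4 was 84.6 CPM from 264 cells after doxorubicin and 110 CPM from 65 untreated cells, a ratio of 0.769 (0.453 to 1.37), which lies opposite to the CD45+ libraries with an interval that includes 1.

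Tumour cells of the CD4/8 libraries held 6.82 CPM of Tlr4 after doxorubicin at 48 h and 2.66 CPM untreated, a ratio of 2.56 (1.96 to 3.41). Tlr2 measured 24.3 CPM after doxorubicin and 10.6 CPM untreated, a ratio of 2.29 (2.01 to 2.65), Tlr3 14.2 and 9.8 CPM, a ratio of 1.45 (1.25 to 1.69), and Myd88 35.3 and 29.2 CPM, a ratio of 1.21 (1.1 to 1.32). The Tlr2 ratio was not seen in the CD45+ tumour gate, where doxorubicin and untreated libraries overlapped. Monocyte gates of these libraries held only 6 to 14 cells. Myd88 there was 44.8 CPM after doxorubicin at 48 h and 126 CPM untreated, from 14 and 7 cells.

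Across the arms that received antibodies after doxorubicin, Tlr4 in macrophages was 13.6 CPM with anti-PD1, 16 CPM with anti-CTLA4, 35.9 CPM with both and 22.5 CPM with IgG, beside 32.0 CPM at 48 h and 14.4 CPM untreated. Tlr13 was 52.2 CPM with anti-PD1, 43.2 CPM with anti-CTLA4, 19.9 CPM with both and 62.4 CPM with IgG, so the library of both antibodies was high for Tlr4 and low for Tlr13, from 72 macrophages. In T cells themselves Myd88 was steady, between 24.4 and 25.5 CPM in all 6 libraries, while Tlr4 stayed at or under 0.355 CPM and Tlr9 had UMIs in 1 library. Tlr2 in T cells lay between 1.18 and 4.76 CPM, with 1.18 CPM in the untreated library and 2.47 CPM or more in the 5 others.

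**Figure D4:**
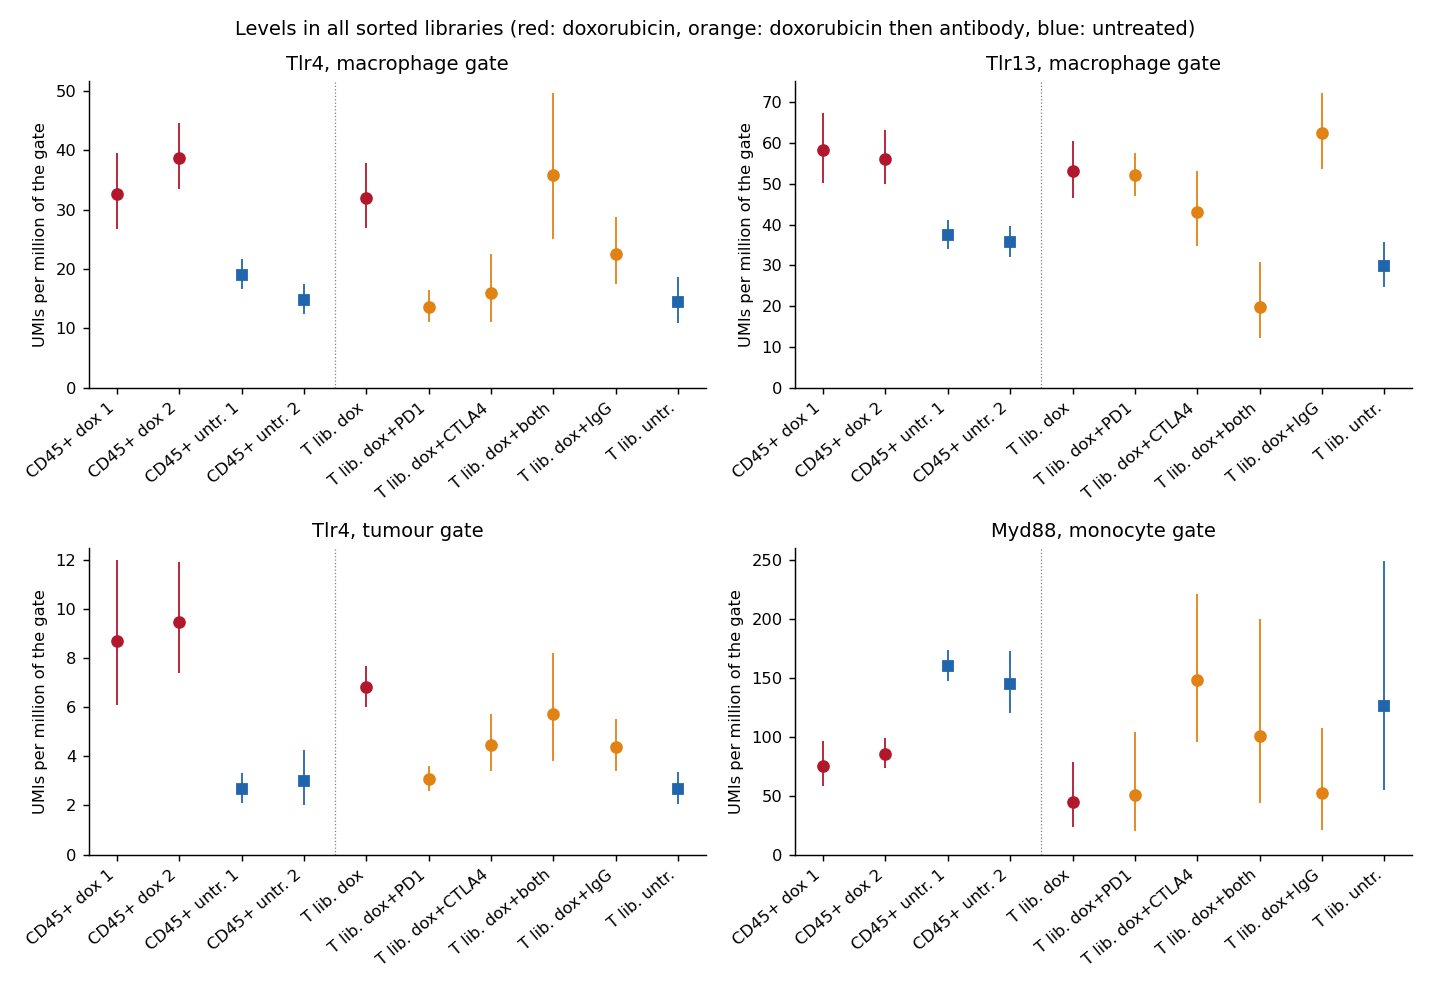
Levels in CPM with exact 95% Poisson intervals for Tlr4 and Tlr13 in macrophages, Tlr4 in tumour cells and Myd88 in monocytes, in the 4 CD45+ libraries (left of the dotted line) and the 6 CD4/8 libraries. Macrophage Tlr4 lies at 32.0 to 38.7 in the 3 libraries taken 48 h after doxorubicin and at 14.4 to 19.0 in the 3 untreated libraries.

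The pooled table of tumour cells held 2 barcode sets of 1508 and 2508 cells, and nothing says which set came from which sample, so the sets were not compared. Tlr2 was 292 and 146 CPM in the neutrophils of the 2 sets and 198 and 167 CPM in macrophages. In the second set the exact intervals of the 2 gates overlapped (128 to 166 in neutrophils and 158 to 176 in macrophages). Tlr13 was 115 and 63.4 CPM in neutrophils, 57.3 and 54.0 CPM in macrophages and 0.168 and 0.453 CPM in tumour cells. Tlr3 was 30.1 and 16.1 CPM in tumour cells, 16.5 and 9.65 CPM in macrophages and 3.31 and 0 CPM in neutrophils. Myd88 was 215 and 221 CPM in neutrophils and 37.4 and 30.6 CPM in tumour cells. Tlr4 was 74.6 and 25.8 CPM in neutrophils, 22.1 and 18.1 CPM in macrophages and 13 and 5.05 CPM in tumour cells. In the second set the neutrophil and macrophage intervals also overlapped for Tlr4 (18.6 to 34.9 and 15.3 to 21.2) and Tlr13 (51.7 to 76.8 and 49.1 to 59.2).

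The pathway around the receptors was read from a list of 59 other genes. In macrophages 55 were tested and 1 rose and 4 fell after doxorubicin, where 7.73% of all genes were called (3.82% higher and 3.91% lower). The median change of the 55 was -0.04 log2 units, beside 0 over all genes. Cd36, a scavenger receptor that also assists Tlr2, rose to 500 and 466 CPM after doxorubicin, against 127 and 72.5 CPM untreated (2.23 log2 units, adjusted p = 0.00482 in edgeR's quasi-likelihood test). Cxcl10, a chemokine induced by interferon, fell to 87.0 and 74.3 CPM, against 579 and 583 CPM untreated (-2.89, adjusted p = 0.00125). Il1b, an inflammatory cytokine, fell to 1297 and 1230 CPM, against 2710 and 3035 CPM untreated (-1.22, adjusted p = 0.0187). Il12b, a subunit of interleukin 12, fell to 0.314 and 1.17 CPM (1 and 6 UMIs), against 36.0 and 30.7 CPM untreated (421 and 302 UMIs). Tlr12, an endosomal receptor of profilin, fell to 22.9 and 21.4 CPM, against 67.4 and 71.3 CPM untreated (-1.69).

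The remaining roles gave no call in macrophages, among them 3 adaptors, 14 kinases and ligases, 5 transcription factors and 5 brakes tested. Cd14, the Tlr4 co-receptor, measured 631 and 439 CPM after doxorubicin and 711 and 901 CPM untreated (-0.63 log2 units, adjusted p = 0.179 in edgeR's test). Ly96, the lipopolysaccharide-binding partner of Tlr4, measured 0.3 (adjusted p = 0.448), Unc93b1, which carries the endosomal receptors to their place, -0.05 (adjusted p = 0.933), Ticam1, the adaptor of Tlr3, -0.46 (adjusted p = 0.321) and Tirap, which links Tlr2 and Tlr4 to Myd88, -0.02 (adjusted p = 0.973). Irak3, a brake on Myd88 signalling, measured 23.2 and 20.6 CPM after doxorubicin and 13.1 and 8.64 CPM untreated and did not pass (0.97, adjusted p = 0.0614).

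**Figure D5:**
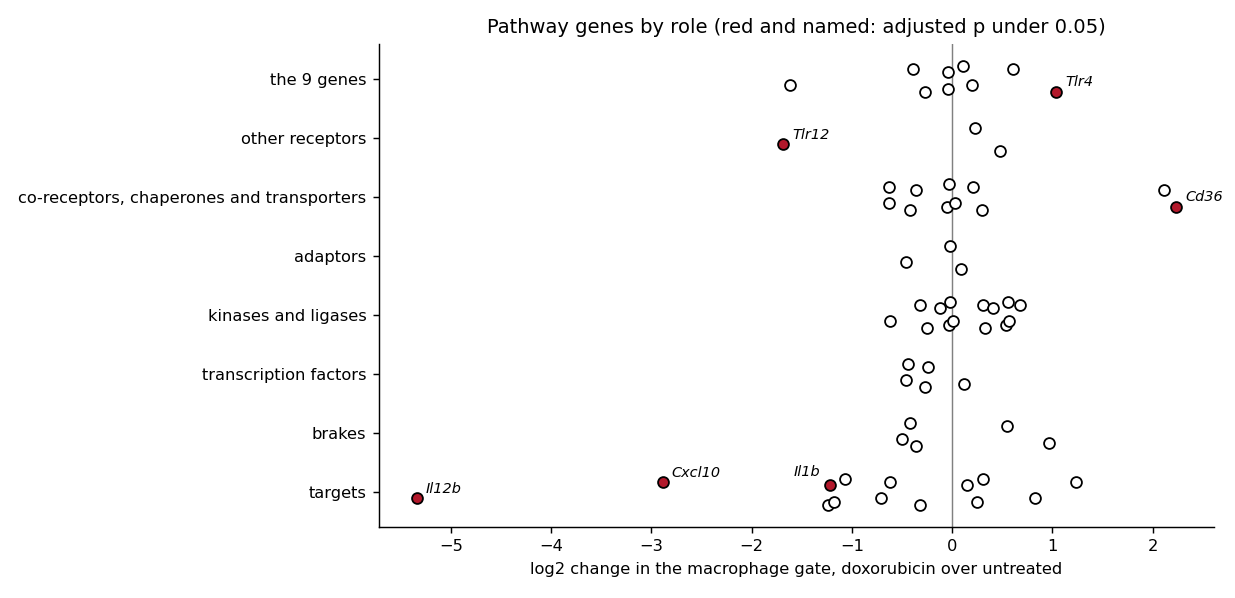
Log2 change in the macrophage gate, doxorubicin over untreated, of the 9 genes and of the pathway genes by role, 1 point per gene tested, with genes at adjusted p under 0.05 in red and named. Tlr4 (1.04) and Cd36 (2.23) lie to the right and Tlr12 (-1.69), Il1b (-1.22), Cxcl10 (-2.89) and Il12b (-5.34) to the left.

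In neutrophils 49 of the 59 were tested, where 1.04% of all genes were called, and Cxcl10 alone was called, lower, at 101 and 87.5 CPM after doxorubicin and 390 and 904 CPM untreated (-2.96 log2 units, adjusted p = 0.0405 in edgeR's test). Cd14 (-0.37), Ly96 (0.54), Tirap (0.84) and Unc93b1 (-0.12) did not pass in neutrophils, and Ticam1 was too low to test. In monocytes 51 were tested, where 2.42% of all genes were called, and Peli1, a ubiquitin ligase of the Irak pathway, alone was called, lower, at 76.5 and 74.9 CPM after doxorubicin and 163 and 168 CPM untreated (-1.22, adjusted p = 0.0174). There Cd14 (-0.32), Ly96 (0.06), Ticam1 (-0.16), Tirap (-0.8), Unc93b1 (-0.28) and Irak3 (0.68) did not pass. In tumour cells none of 50 was called, where 3.31% of all genes were, with Irak3 at 1.26 and the other co-receptors and adaptors named here between -0.45 for Ticam1 and 0.48 for Tirap. Over all kept cells 58 were tested, where 5.5% of all genes were called (3.24% higher and 2.26% lower), and 6 rose (Irak3, Cxcl2, Ccl3, Il1a, Cd36 and Nfkbia) and 3 fell (Il12b, Cxcl10 and Tlr11, the last with no UMI after doxorubicin). Irak3 rose by 2.84 log2 units (adjusted p = 0.00953), to 57.4 and 48.0 CPM against 6.56 and 7.06 CPM untreated, while within neutrophils it measured 172 and 151 CPM after doxorubicin and 83.3 and 132 CPM untreated and did not pass (0.46, adjusted p = 0.632). Cxcl2 within neutrophils measured 26342 and 20569 CPM after doxorubicin and 29522 and 28236 CPM untreated. The same gate held 2941 and 4266 against 4893 and 3876 CPM of Ccl3, and 1106 and 990 against 1107 and 962 CPM of Il1a. For Nfkbia the neutrophil values were 3169 and 4365 against 5659 and 3577 CPM. Of the 49 and 19 untreated Tlr11 UMIs, the dendritic gate held 28 and 4. Over all kept cells Cd14 (1.13), Tirap (0.85), Ly96 (0.42), Unc93b1 (-0.26) and Ticam1 (-0.47) did not pass. In the interaction of neutrophils and macrophages 1 of 56 genes was called, where 2.47% of all genes were, Cxcl1, a chemokine that attracts neutrophils, with a difference of -1.66 (adjusted p = 0.00449 in edgeR's test). Cxcl1 measured 84.2 and 35.9 CPM in doxorubicin neutrophils and 225 and 31.6 CPM in untreated neutrophils, which lie far apart. In macrophages it was 230 and 68.1 CPM after doxorubicin and 116 and 46.1 CPM untreated. The differences of Cd14 (0.31), Ly96 (0.29), Ticam1 (0.77), Tirap (0.98), Irak3 (-0.33) and Unc93b1 (0) did not pass.

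Between gates the counts of called pathway genes stand beside high shares over all genes. Neutrophils against macrophages gave 24 of 55 tested genes higher and 12 lower, where 23.4% of all genes were higher and 32.3% lower, with the largest changes in Tlr12, Ly86, Cd36, Il6, Cd180 and Il10 on the lower side and Ccl3 and Cxcl2 on the higher side. Neutrophils carried more of Tlr4's co-receptor Cd14 (2.6 log2 units) and of Irak3 (3.37) and Tirap (1.84), and less of Unc93b1 (-1.67) and Ticam1 (-1.73), with Ly96 at -0.03. Neutrophils against monocytes gave 25 higher and 12 lower, where 23.3% of all genes were higher and 23.4% lower, led by Il6, Ccl3, Ly86, Il1a, Cxcl2, Cd36, Cd180 and Ccl4. Cd14 (1.99), Irak3 (2.51) and Tirap (1.56) were higher and Ticam1 (-2.2) and Unc93b1 (-1.12) lower, with Ly96 at 0.26 not passing. Monocytes against macrophages gave 4 higher (Il6, Irak3, Irf5 and Ikbkb) and 4 lower (Tlr12, Il10, Ly86 and Unc93b1), where 3.01% of all genes were higher and 6.7% lower. Cd14 (0.62), Ticam1 (0.48), Tirap (0.28) and Ly96 (-0.29) did not pass there.

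Against tumour cells, neutrophils had 45 of the 55 genes higher and 3 lower, where 31.8% of all genes were higher and 42.5% lower, led by Il1b, Ptgs2, Il1a, Ccl3, Ccl4, Cxcl2, Slc15a3 and Tlr6. Monocytes had 41 higher and 5 lower, where 27.3% of all genes were higher and 36.2% lower, led by Cd180, Ly86, Irf5, Il6, Cd36, Ticam2, Slc15a3 and Il1b. Macrophages had 45 higher and 2 lower, where 29.9% of all genes were higher and 32.2% lower, led by Ly86, Cd180, Tlr12, Cd36, Slc15a3, Irf5, Il6 and Il10. Cd14 was higher than in tumour cells by 3.81 log2 units in neutrophils, 1.82 in monocytes and 1.21 in macrophages, and Irak3 by 5.77, 3.26 and 2.4 in the same order. Ly96 was higher by 1.47, 1.21 and 1.49 and Unc93b1 by 2.46, 3.58 and 4.13. Ticam1 was higher in monocytes (2.51) and macrophages (2.03), with 0.3 in neutrophils not passing, and Tirap was higher in neutrophils (1.73), with 0.17 in monocytes and -0.11 in macrophages not passing.

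Likeness was measured as Pearson's r of log2(CPM + 1) over 16 points, the 4 gates in 4 libraries, which share libraries and depth, and is a description. Tlr2 was most like Spi1 (0.997), Cd52 and Ptprc, Tlr13 most like C5ar1 (0.991), Plek and Cd300ld, and Tlr4 most like Lasp1 (0.976), with Tbl1xr1 at 0.969. Tlr7 was most like Adap2 (0.988), Tbxas1 and Cd48, Tlr1 most like Pla2g7 (0.96), P2ry12 and Cyth1, and Tlr8 most like Gpr171 (0.934), Gpr65 and Cyp4v3. Myd88 was most like Cflar (0.981), Il17ra and Stx11, Tlr3 most like Ifi44 (0.966), Nmt2 and Pygb, and Tlr9, at a few UMIs, most like Irak1 (0.833), Ocstamp and Traf5. Among the 9 genes the pair Tlr2 and Tlr13 had r of 0.954 and the pair Tlr4 and Tlr13 0.912, while Tlr3 was negative with every gene except Tlr9 (0.188).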

How the data were processed

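The sorted-cell matrices hold UMI counts, made by the authors in Cell Ranger 6.0.0 on GRCm38/mm10, per the file headers and the labels. The pooled tumour table was also deposited as UMI counts, with Seurat named in the submitters' processing notes. The matrices hold no gene names, so rows were named in the order of the pooled table, after a check that row totals matched it (r 0.954 to 0.984, at most 0.354 with rows shifted). A deposited bulk table with 12 columns that match no sample, and the ATAC samples, were not analysed here.

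Cells with at least 500 UMIs and 200 genes and under 20% mitochondrial UMIs were kept, 1480 and 3996 doxorubicin and 3581 and 1797 untreated cells of the CD45+ sort. The 10 libraries held 16908180 to 93748407 UMIs. Cells that met several lineages were left out, except that monocyte with macrophage went to the higher share and monocyte with dendritic to dendritic. No doublet caller was run, and the matrices hold no barcodes, so shared barcodes could not be counted. Of 10854 cells 2017 entered no gate, and 0.85% of neutrophils to 5.89% of tumour cells lay within 25% above their threshold.

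UMIs were summed per gate and library and tested two-sided by the quasi-likelihood F test of edgeR 4.0.16 under R 4.3.3, with TMM scaling, its default low-count filter, robust dispersions, at least 30 cells per library and an adjusted p threshold of 0.05. DESeq2 1.42.0 was an alternative. The fit was tested on simulated data, of which no outcome is given here. Intervals are exact at 95% and cover counting error only, and a count of 0 is given its limit of 3 counts unless said otherwise. Gene overlaps came from the GENCODE vM21 models.

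The 9 genes, the gates and the gene lists were chosen with earlier results of these data known. All 9 genes enter every comparison. Of the pathway list, genes past the threshold are named, or the 8 with the largest change where more passed, plus Cd14, Ly96, Unc93b1, Ticam1, Tirap and Irak3 in every comparison. A gene among those most alike in level is not reported here.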

Additional observations from a re-analysis of the deposited data

Results flagged for a closer look

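In CPM, Myd88 was lower after doxorubicin in the monocyte gate (75.3 and 85.4 against 160 and 145) and higher in the tumour gate (37.9 and 38.0 against 33.0 and 35.2). The fitted changes, -1.01 in monocytes and -0.12 in tumour cells, differ by -0.89 log2 units. The difference was not tested, and the tumour direction holds on the CPM scale only.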

How the results depend on the processing

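The alternatives were RLE scaling, DESeq2, no filter on low counts, the replicate number or library block added or dropped, cells with 1000 UMIs or more, stricter gates and each library left out in turn. Over all results and alternatives, 1000 values kept their direction and side of the threshold, 27 lost it, 6 gained it, 25 changed sign and 32 moved in size. With the replicate number as a block, 0 genes were called in monocytes (Myd88 -1.01, adjusted p = 0.0607 in edgeR's test) and 1 in tumour cells (Tlr4 1.41, adjusted p = 0.0125), and the block changed no other call. With no filter on low counts 1 was called in tumour cells (Tlr4, adjusted p = 0.0395 in edgeR's test), beside 1634 of all 20645 tested. The 2 pairs share only a number, with deviations correlated at r between 0.094 and 0.252. Leaving out 1 library, the genes called numbered 0 to 1 in macrophages, 0 in monocytes, 1 to 2 over all kept cells and 0 to 1 for monocytes against macrophages.

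The changes of sign were all in results that did not pass. With RLE scaling and with DESeq2, Tlr2 in neutrophils was -0.02, and with stricter gates Tlr2 was -0.01 in neutrophils and -0.01 in tumour cells and Tlr13 in neutrophils -0.02. With DESeq2 Tlr8 in macrophages was 0.01. With 1 library left out, the neutrophil changes ran between -0.33 and 1.47 for Tlr1, -0.19 and 0.29 for Tlr2 and -0.06 and 0.43 for Tlr13, the monocyte change of Tlr1 between -1.61 and 0.02 and the tumour change of Tlr2 between -0.46 and 0.55. The macrophage changes ran between -0.02 and 0.47 for Tlr1, -0.16 and 0.42 for Tlr3, -0.34 and 0.23 for Tlr7 and -1.37 and 0.74 for Tlr8. Over all kept cells Tlr1 ran between -0.04 and 0.94 and Tlr8 between -1.6 and 0.56. Tlr1 in neutrophils against monocytes ran between -0.09 and 0.82, Tlr7 in monocytes against macrophages between -0.26 and 0.02, and the interaction of Tlr1 between -0.31 and 1.46. The cause of these shifts was not tested.

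Tlr3 in macrophages against tumour cells passed with RLE scaling (-0.71, adjusted p = 0.0328 in edgeR's test) and with stricter gates (-0.59, adjusted p = 0.0339), and Myd88 in monocytes against macrophages passed without doxorubicin replicate 1 (0.74, adjusted p = 0.0491). RLE scaling moved the median of all genes to -0.29 (from -0.07) for macrophages, -0.38 (from -0.22) for monocytes and -0.53 (from -0.32) for neutrophils, each against tumour cells. Genes called among all genes numbered 893 in macrophages (1879 with no filter, 149 to 1274 with 1 library left out), 197 in monocytes (497 with no filter, 180 to 297), 90 in neutrophils (524 with no filter, 200 with DESeq2, 142 to 248), 430 in tumour cells (1634 with no filter, 963 with DESeq2, 1880 with the replicate block, 175 to 487) and 884 over all kept cells (2005 with no filter, 2516 with DESeq2, 1593 with the replicate block, 424 to 656). Monocytes against macrophages called 1239 (483 with no library block, 568 to 866), and the interaction 291 (127 to 648). The dendritic alternatives were not run, for want of cells. Depth limits Tlr8 and Tlr9 most, at 144 and 37 UMIs in macrophages.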
